A study of Mus musculus with 21 samples.

Results

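The genes described here were 9 mouse genes for the binding, metabolism and nuclear receptors of retinoids, taken by symbol from the 49315 genes of the count files: Crabp1, Crabp2, Dhrs9, Cyp26b1, Lrat, Aldh1a3, Rarg, Rarb and Rxra. All 9 were present in the files. Total RNA of epidermal sheets was sequenced from 21 mouse samples in 7 groups of 3, and the study addressed Tfap2a and Tfap2b, the genes of AP-2 transcription factors, in adult skin. Only 8 files held counts. The comparison rested on 3 libraries labelled K14CreTfap2afl/flTfap2bfl/fl at 6 months of age, called here knockout-labelled libraries, and 3 libraries of strain-specific controls of the same age, whose genotype label was WT and which are called controls. The other 2 libraries with counts were labelled K14CreTfap2bfl/fl at 3 weeks of age. K14Cre expresses Cre recombinase from the promoter of keratin 14, which is active in basal keratinocytes. The labels did not say whether the controls carried floxed alleles, or whether replicates came from separate animals, and p-values then measure only the spread between these libraries.

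Retinol, the alcohol form of vitamin A, is either stored in cells as an ester or oxidised to retinal and then to retinoic acid. Retinoic acid binds the receptors RARα, RARβ and RARγ, which act on DNA as pairs with RXR receptors, and enzymes of the CYP26 family break it down. In the epidermis an excess of retinoic acid is known to thicken the living layers and to disturb cornification, and the pathway is the target of retinoid drugs for the skin.

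Promoter windows, from 250 bases before to 50 bases after the start of transcription, were available from RefSeq (build GRCm38.p6) for 7 of the 9 genes. Each was searched on both strands for the AP-2 consensus GCCNNNGGC and for retinoic acid response elements, meaning a pair of hexamers NGNTCA, with A or G at the first N and G or T at the other, in the same orientation with 5, 2 or 1 bases between them. The 3 windows with a match are shown because they bear on the factors deleted and on the receptors measured. Capitals mark the response element with a spacer of 5 bases in Rarb, and GCCNNNGGC in Lrat and Cyp26b1. Sequences are given on the gene's own strand, which is the minus strand for all 3.
Rarb, chr14:16575427-16575726: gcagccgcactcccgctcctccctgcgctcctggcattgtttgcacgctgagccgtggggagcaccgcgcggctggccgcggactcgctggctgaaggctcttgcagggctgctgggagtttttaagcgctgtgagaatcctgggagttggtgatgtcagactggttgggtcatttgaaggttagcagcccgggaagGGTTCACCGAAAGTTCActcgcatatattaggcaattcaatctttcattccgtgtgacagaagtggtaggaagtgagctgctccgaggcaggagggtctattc
Lrat, chr3:82903925-82904224: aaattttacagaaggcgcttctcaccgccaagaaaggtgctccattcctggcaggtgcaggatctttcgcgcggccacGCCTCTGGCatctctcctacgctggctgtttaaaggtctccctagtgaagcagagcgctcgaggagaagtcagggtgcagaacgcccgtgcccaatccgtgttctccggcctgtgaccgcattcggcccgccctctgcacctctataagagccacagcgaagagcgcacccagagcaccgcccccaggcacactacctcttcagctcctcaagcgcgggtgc
Cyp26b1, chr6:84593761-84594060: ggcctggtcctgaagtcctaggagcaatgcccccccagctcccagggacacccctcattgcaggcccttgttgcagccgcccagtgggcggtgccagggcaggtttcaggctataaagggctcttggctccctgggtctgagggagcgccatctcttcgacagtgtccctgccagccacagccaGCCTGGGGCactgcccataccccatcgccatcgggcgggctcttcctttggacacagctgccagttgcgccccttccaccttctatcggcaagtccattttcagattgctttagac

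The element of Rarb lay between bases -53 and -37 from the start. An element with this spacer was found in 32 of 32851 windows of this length (0.0974%), and no window of the 9 genes held one with a spacer of 2 or 1, which 0.268% and 0.222% of all windows did. GCCNNNGGC was found in 16.6% of all windows, so the matches of Lrat (bases -172 to -164) and Cyp26b1 (bases -66 to -58) are of a common kind. The 32 windows belonged to 31 genes, of which 5 were tested at 6 months, Rarb among them. Of these 5, 1 was higher and 2 were lower past an edgeR adjusted p of 0.05. Over all genes tested 6.26% were higher and 8.59% lower, and 5 genes are too few for a statement about genes with this element. A match describes these letters and is not a measured binding site.

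Neither targeted gene was lower past the threshold. Tfap2a held 140.3 to 210.1 CPM (counts scaled to a common library total) in the controls and 213.2 to 309.2 CPM in the knockout-labelled libraries, with an edgeR adjusted p of 0.118. Leaving out control replicate 3 gave a log2 fold change of 0.72 for it, past the threshold. Tfap2b held 57.3 to 86.6 CPM and 53.8 to 57.2 CPM, with an edgeR adjusted p of 0.111. The labels do not name the deleted exons and whole-gene counts include the others, so this does not check the deletion. Each direction below is that of the labels. The 8 libraries held 11318181 to 17746284 counts. Control replicates 1 and 2 stood apart, with 1.61 and 3.19 counts per exonic kb in odorant and vomeronasal receptor genes, against 0.0969 to 0.195 in the other 6 libraries. That density, multiplied by a gene's exonic length, is called its background below. Control replicate 3 correlated in rank about as closely with the knockout-labelled libraries (0.944 to 0.951) as with the other controls (0.942 and 0.947). Library 1 labelled Tfap2b knockout stood apart in markers of fat, with 1806 CPM summed over 4 adipocyte genes against 0.16 CPM in library 2. It also held more of the summed markers of dermal fibroblasts (3711 against 107 CPM), endothelium (375 against 0.320 CPM) and sebaceous gland (14240 against 979 CPM). For the 9 genes, values without control replicates 1 and 2 or without control replicate 3 are given below where they change a call or a sign.

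Of the 9 retinoid genes, 5 rose in the knockout-labelled libraries at 6 months: Lrat, Dhrs9 and Aldh1a3, which store or oxidise retinol and retinal, the retinoic acid carrier gene Crabp2 and the receptor gene Rxra. None of the 8 that were tested fell, by the adjusted threshold, an unadjusted edgeR p under 0.05, DESeq2 or limma-voom. Cyp26b1, Rarg and Rarb did not pass, and Crabp1 was too low to be tested. Over all 17755 genes tested with edgeR's quasi-likelihood test, 14.9% passed an adjusted p of 0.05, 6.26% as higher and 8.59% as lower. The CPM of the groups did not overlap for the same 5 genes, all higher, where 38.7% of all tested genes were without overlap, 22.5% higher and 16.3% lower. The median log2 fold change was 0.68 over the 8 genes tested and -0.035 over all genes tested. Since epidermal sheets hold several cell types, more cells expressing a gene and more of its RNA per cell cannot be told apart.

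**Figure D1:**
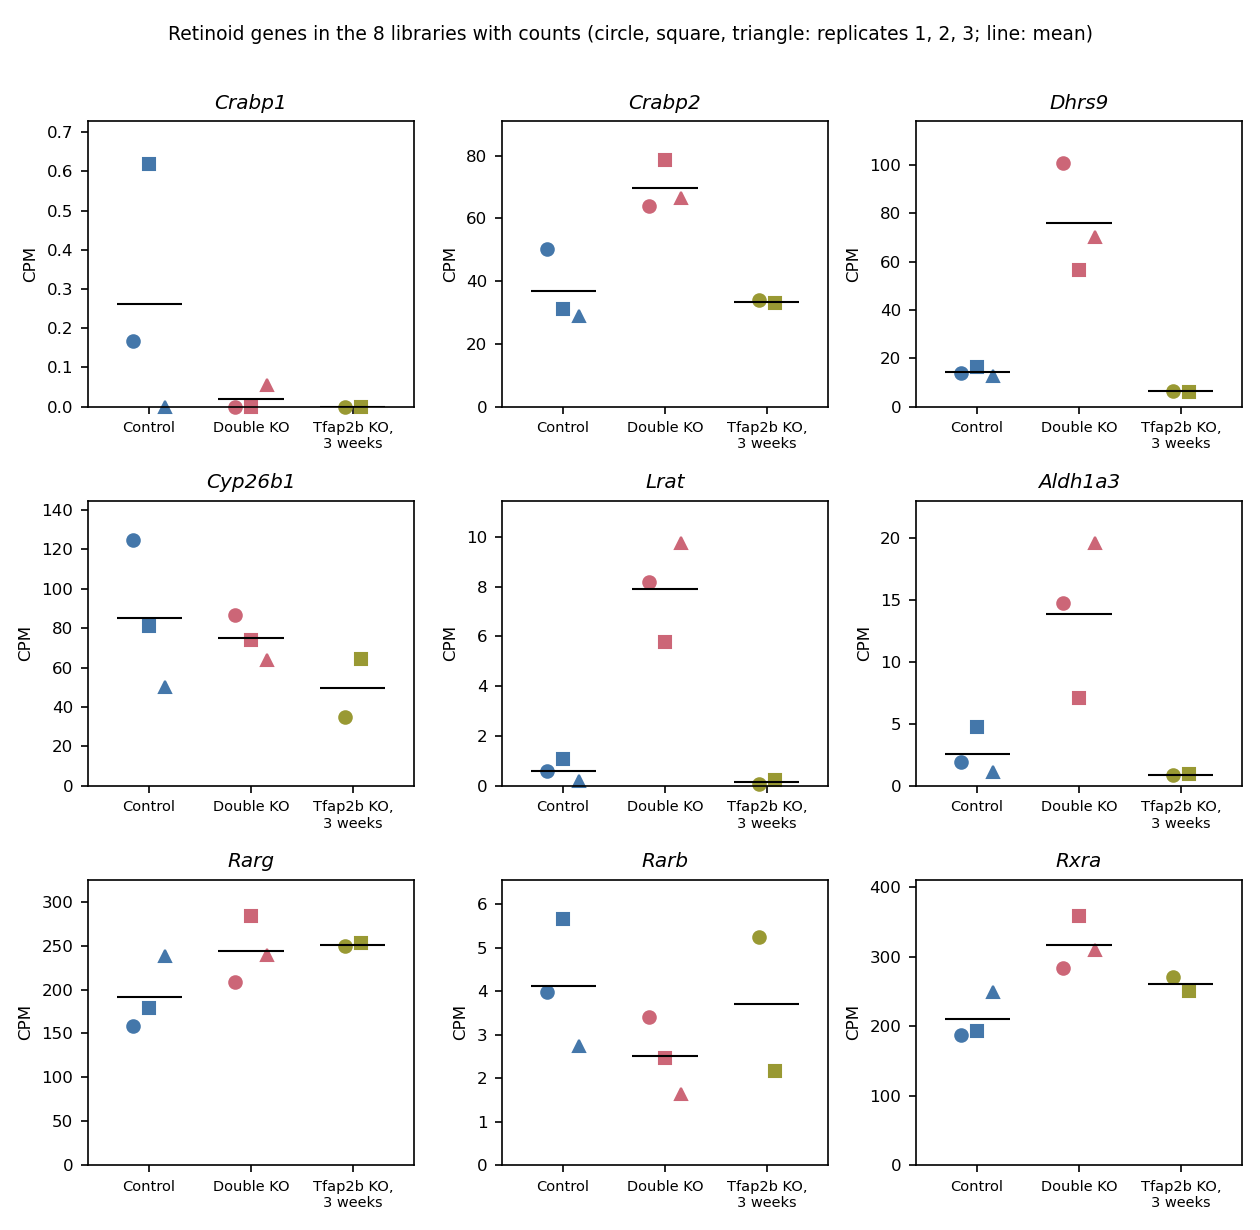
CPM (vertical axis, linear from 0, a separate scale for each gene) of the 9 retinoid genes in each library, for the controls (n = 3) and the knockout-labelled libraries (n = 3) at 6 months and those labelled Tfap2b knockout at 3 weeks (n = 2). Points are libraries and lines are means: the 2 groups at 6 months are apart for Crabp2, Dhrs9, Lrat, Aldh1a3 and Rxra and overlap for Crabp1, Cyp26b1, Rarg and Rarb.

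Crabp1 and Crabp2 encode the cellular retinoic acid binding proteins, of which CRABP2 is known to carry retinoic acid to its receptors in the nucleus. Crabp2 (ENSMUSG00000004885, chromosome 3, 87948666 to 87953376, plus strand, GRCm38) was at 50.2, 31.1 and 28.9 CPM in control replicates 1 to 3 and at 64.1, 78.7 and 66.5 CPM in the knockout-labelled libraries. Every knockout-labelled library was above the highest control, which was replicate 1. The mean rose from 36.7 ± 11.7 to 69.8 ± 7.81 CPM (n = 3 each, ± SD), or by a log2 fold change of 0.85 (edgeR adjusted p 0.0336, SE 0.22). Without control replicate 1 it was 1.15 (edgeR adjusted p 0.00718), and leaving out control replicates 1 and 2 together gave 1.21 (edgeR adjusted p 0.0316). The call was lost without control replicate 2, at 0.74, and without any 1 of the knockout-labelled libraries, at 0.79 to 0.96 (edgeR adjusted p 0.0556 to 0.115 over these 4 fits), and with the background subtracted (0.78, edgeR adjusted p 0.0506).

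Crabp1 (ENSMUSG00000032291, chromosome 9, 54764748 to 54773110, plus strand) was close to undetected in these sheets. Its counts were 2, 7 and 0 in the controls and 0, 0 and 1 in the knockout-labelled libraries, and both libraries labelled Tfap2b knockout held 0 counts, which allows up to 3. The background for its length was 1.29 and 2.56 counts in control replicates 1 and 2. It stayed under the filter on low counts, and no fold change is given. Of the pair, Crabp2 was thus the gene with measurable RNA.

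Lrat (ENSMUSG00000028003, chromosome 3, 82892579 to 82903973, minus strand) encodes lecithin retinol acyltransferase, which makes the storage ester of retinol. It showed the largest fitted change of the 8 genes tested. Control replicates 1 to 3 held 0.581, 1.06 and 0.195 CPM (7, 12 and 3 counts), and the knockout-labelled libraries held 8.18, 5.79 and 9.75 CPM (113, 85 and 173 counts). All 3 of the latter were above the highest control, and Lrat passed the filter only through that group. The log2 fold change was 3.38 (edgeR adjusted p 0.00392, SE 0.55). The background for its length, 8.61 and 17.1 counts, exceeded the counts of control replicates 1 and 2. Subtracting it left those 2 controls without counts, and the log2 fold change was then 5.32 (edgeR adjusted p 0.000970), a size that rests on the prior count. Without those 2 controls it was 4.59 (edgeR adjusted p 0.0144), the fit leaving out control replicate 3 gave 3.07, and the rise passed in all 15 alternatives run.

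Dhrs9 (ENSMUSG00000027068, chromosome 2, 69380445 to 69404533, plus strand) encodes a dehydrogenase that can oxidise retinol. Controls held 13.9, 16.3 and 12.5 CPM, against 100.7, 56.7 and 70.1 CPM in the knockout-labelled libraries. The controls lay close together, and all 3 knockout-labelled libraries were above them, replicate 2 the least. The mean rose from 14.3 ± 1.94 to 75.8 ± 22.5 CPM (n = 3 each, ± SD), or by a log2 fold change of 2.32 (edgeR adjusted p 0.000544, SE 0.23). It stayed between 2.12 and 2.53 and past the threshold in all 15 alternatives, among them the fit without control replicates 1 and 2.

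Aldh1a3 (ENSMUSG00000015134, chromosome 7, 66390890 to 66427517, minus strand) encodes a retinal dehydrogenase, which makes retinoic acid. Controls held 1.91, 4.77 and 1.11 CPM (23, 54 and 17 counts), and the knockout-labelled libraries held 14.8, 7.09 and 19.6 CPM (204, 104 and 348 counts). Both groups were spread widely, with control replicate 2 the highest control and replicate 2 the lowest knockout-labelled library, but they did not overlap. The mean was 2.6 ± 1.93 against 13.8 ± 6.31 CPM (SD, n = 3 each), a rise of 2.30 on the log2 scale (edgeR adjusted p 0.0263, SE 0.56). The background for its length was 7.43 and 14.7 counts in control replicates 1 and 2. With the background subtracted the rise was 2.61 (edgeR adjusted p 0.0155). The call was lost without control replicate 1 (2.15, edgeR adjusted p 0.113), without replicate 1 or 3 of the knockout-labelled libraries (2.30 and 1.99, edgeR adjusted p 0.0781 and 0.0607) and without control replicates 1 and 2 together (3.45, edgeR adjusted p 0.0797). The other genes of this step were Aldh1a1, at 1.37 to 4.86 CPM in the controls and 2.03 to 2.68 CPM in the knockout-labelled libraries (log2 fold change -0.27, edgeR adjusted p 0.756), and Aldh1a2, which was not tested, at 8, 38 and 8 counts against 2, 1 and 5.

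Cyp26b1 (ENSMUSG00000063415, chromosome 6, 84571414 to 84593908, minus strand) encodes an enzyme that clears retinoic acid. It was at 124.8, 81.4 and 49.9 CPM in the controls and at 86.9, 74.2 and 64.1 CPM in the knockout-labelled libraries, which all lay inside the range of the controls. Its log2 fold change was -0.27 (edgeR adjusted p 0.569, SE 0.30), and the sign turned to 0.12 without control replicate 1 and to 0.53 without control replicates 1 and 2 (edgeR adjusted p 0.775 and 0.214). Cyp26a1, its paralog, held 11, 17 and 0 counts in the controls and 0 counts in the other 5 libraries. Within each library, the level of Aldh1a3 per exonic length relative to that of Cyp26b1 was 0.0177, 0.0680 and 0.0257 in the controls and 0.197, 0.111 and 0.355 in the knockout-labelled libraries, so the 2 groups did not overlap in this ratio (exact permutation test, two-sided p 0.1, the smallest that 3 against 3 can give, and 0.125 adjusted over the 5 such measures computed).

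Rarg and Rxra had the highest mean levels per exonic length of the 9 genes. Rxra (ENSMUSG00000015846, chromosome 2, 27676440 to 27762957, plus strand) encodes the partner receptor RXRα. It was at 187.5, 193.8 and 249.6 CPM in the controls, against 284.1, 358.5 and 309.5 CPM in the knockout-labelled libraries. Control replicate 3 was the nearest control to the other group. The log2 fold change was 0.52 (edgeR adjusted p 0.0467, SE 0.15), just inside the threshold. Without control replicate 3 the rise was 0.74 (edgeR adjusted p 0.00528), whereas leaving out any 1 of the other 5 libraries ended the call, at 0.45 to 0.64, and without control replicates 1 and 2 the log2 fold change was 0.29 (edgeR adjusted p 0.407). It also missed the threshold by limma-voom (adjusted p 0.0504), with the background subtracted (edgeR adjusted p 0.0541) and with all 8 libraries fitted together (edgeR adjusted p 0.0702).

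Rarg (ENSMUSG00000001288, chromosome 15, 102234938 to 102257517, minus strand), the retinoic acid receptor known to prevail in epidermis, was at 158.5, 179.2 and 237.9 CPM in the controls, against 208.1, 284.0 and 239.7 CPM in the knockout-labelled libraries. The groups overlapped through control replicate 3, and the log2 fold change was 0.27 (edgeR adjusted p 0.312, SE 0.18). Without control replicate 3 it passed as a rise, at 0.54 (edgeR adjusted p 0.0300). Leaving out control replicates 1 and 2 gave -0.019. Rarb (ENSMUSG00000017491, chromosome 14, 16430842 to 16575472, minus strand) is a textbook target of retinoic acid, and its window with the response element is printed above. It was low, at 3.99, 5.65 and 2.73 CPM (48, 64 and 42 counts) in the controls and 3.40, 2.45 and 1.63 CPM (47, 36 and 29 counts) in the knockout-labelled libraries, with overlap. The log2 fold change of Rarb was -0.77 (edgeR adjusted p 0.237, SE 0.44), and it did not pass in any alternative. In the counted exons no base of any of the 9 genes was shared with another gene.

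Rara, which encodes the third receptor of this kind and is not one of the 9, fell from 67.5 ± 9.46 to 36.7 ± 1.30 CPM (n = 3 each, ± SD), or by a log2 fold change of -0.96 (edgeR adjusted p 0.00545, SE 0.16). It missed the threshold in 1 of 15 alternatives, without control replicates 1 and 2 (-0.76, edgeR adjusted p 0.0663). Of the level per exonic length summed over Rara, Rarb and Rarg, Rara made up 31.0%, 24.5% and 18.9% in the controls and 14.4%, 10.5% and 12.3% in the knockout-labelled libraries. Rarg made up 66.8%, 72.4% and 79.8% and then 83.7%, 88.4% and 86.9%. Neither share overlapped between the groups (exact permutation test, two-sided p 0.1 for each, 0.125 adjusted). Rxra made up 87.7% to 90.5% of the summed RXR genes in all 6 libraries, with overlapping groups (exact permutation p 0.3).

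**Figure D2:**
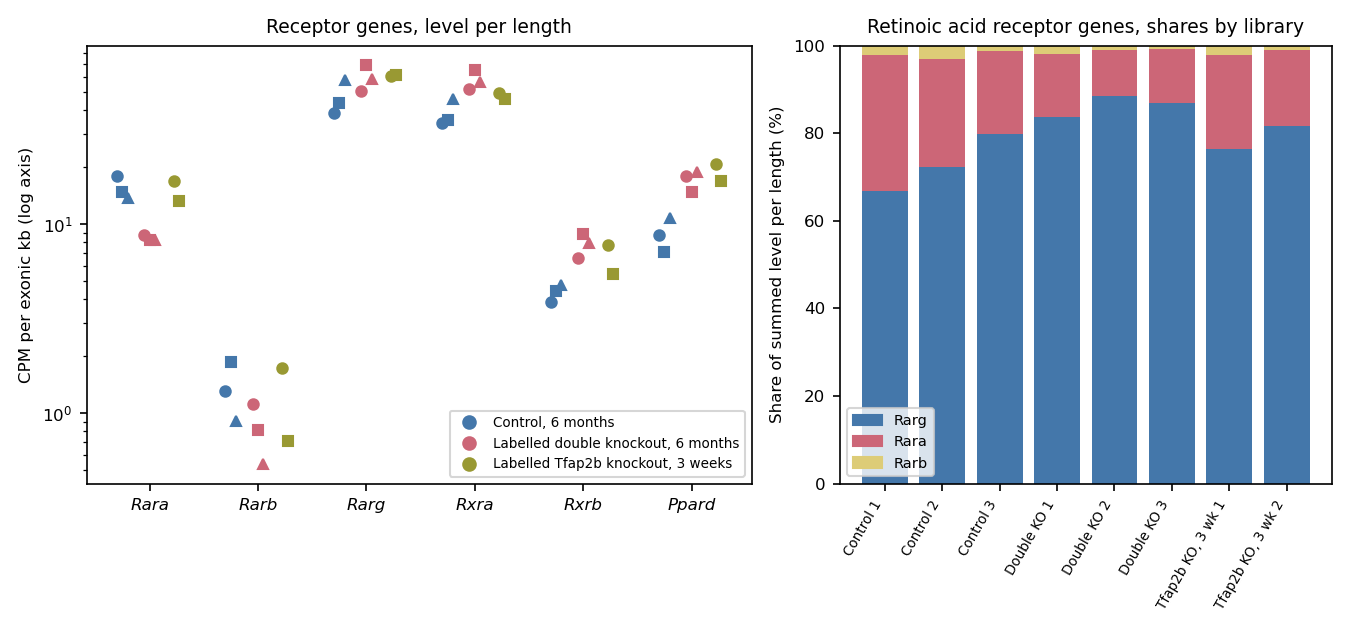
Left, level of 6 receptor genes in CPM per exonic kb (log axis) for each library (circle, square and triangle for replicates 1, 2 and 3). Right, shares of Rarg, Rara and Rarb in their summed level per exonic length (percent, bars stacked to the total) for the 8 libraries: Rara takes 18.9% to 31.0% in the controls and 10.5% to 14.4% in the knockout-labelled libraries.

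Compared per exonic length, the mean level in the controls was 46.7 CPM per kb for Rarg, 38.5 for Rxra, 27.8 for Crabp2 and 15.9 for Cyp26b1. Across libraries each of these 4 overlapped its neighbour in that order. Within every control, though, Rarg was above Rxra and Crabp2 above Cyp26b1. Dhrs9 followed at 3.33 CPM per kb, apart from the genes above and below it. Rarb (1.36), Aldh1a3 (0.562), Crabp1 (0.326) and Lrat (0.114) came last, again with overlap between neighbours across libraries. Within every control Rarb was above Aldh1a3 and Aldh1a3 above Crabp1. In the knockout-labelled libraries the order per kb was Rarg (59.4), Rxra (58.1) and Crabp2 (52.8), which overlapped, then Dhrs9 (17.7) and Cyp26b1 (14.02), which overlapped, then Aldh1a3 (2.99), Lrat (1.48) and Rarb (0.823), overlapping from neighbour to neighbour, and Crabp1 (0.0234) apart from them. Within every knockout-labelled library Rxra was above Crabp2, Aldh1a3 above Lrat and Lrat above Rarb. Dhrs9 was thus below Cyp26b1 in every control and overlapped it in the other group.

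Around these genes, 51 others of the retinoid pathway were listed by role, and 41 were tested. Of the 41, 8 were higher and 6 lower past the threshold and 27 did not pass. These counts, and those by role below, stand beside 6.26% higher and 8.59% lower over all genes tested. The median log2 fold change of the 41 was 0.038. Among 8 other carrier and uptake genes, 4 were tested and 3 of these were higher. Rbp2, which encodes a cellular retinol binding protein, had a log2 fold change of 2.6 (edgeR adjusted p 0.000353). It was at 3.40, 5.21 and 4.23 CPM in the controls, against 25.7, 30.8 and 27.6 CPM in the knockout-labelled libraries. Fabp5, a fatty acid binding protein that can also carry retinoic acid, held 33.1, 67.9 and 49.0 CPM and then 194.5, 179.0 and 279.8 CPM (log2 fold change 2.05, edgeR adjusted p 0.00301). Rbp2 and Fabp5 passed in all 15 alternatives. The ratio of Fabp5 to Crabp2 per exonic length was 0.244, 0.810 and 0.628 in the controls and 1.13, 0.843 and 1.56 in the knockout-labelled libraries (exact permutation test, two-sided p 0.1, 0.125 adjusted). Fabp5 is known to have processed copies in the genome that can take or give reads.

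Of 18 other genes for the exchange of retinol and retinal 16 were tested, of which 2 were higher and 1 lower. Sdr16c5, a retinol dehydrogenase of the epidermis, had a log2 fold change of 0.66 (edgeR adjusted p 0.0263), its neighbour Sdr16c6 one of -0.65 (edgeR adjusted p 0.0317), and Dhrs3, which returns retinal to retinol, one of 0.64 (edgeR adjusted p 0.0497). These 3 calls were lost in 7, 8 and 9 of 15 alternatives. Of 5 other genes that handle esters, only Pnpla2, a lipase, passed, at -0.82 (edgeR adjusted p 0.0153), and of 3 carotenoid genes only Bco1, which cleaves beta-carotene, at -1.94 (edgeR adjusted p 0.0334) on 28, 32 and 38 against 6, 14 and 7 counts. Of 4 other receptor genes 3 were tested, and 2 were higher, Rxrb (0.76, edgeR adjusted p 0.0284) and Ppard (0.88, edgeR adjusted p 0.0133), and Rara was lower. Of 9 coregulator genes 1 was higher, and Nrip1 (-0.88, edgeR adjusted p 0.0191) and Ncoa1 (-0.51, edgeR adjusted p 0.0244) were lower. Leaving out libraries or changing the processing ended the call in 2 of 15 alternatives for Ppard, 4 for Nrip1, 5 for Pnpla2, 6 for Rxrb, and 9 each for Bco1 and Ncoa1. Leaving out control replicates 1 and 2 together was one of these for all 9 genes named in these role groups apart from Rara (edgeR adjusted p 0.140 to 0.312). The log2 fold change was then -0.40 for Nrip1, -0.46 for Ncoa1, -0.58 for Pnpla2, -0.69 for Sdr16c6 and -1.90 for Bco1, and 0.51 for Sdr16c5, 0.57 for Dhrs3, 0.62 for Ppard and 0.65 for Rxrb.

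**Figure D3:**
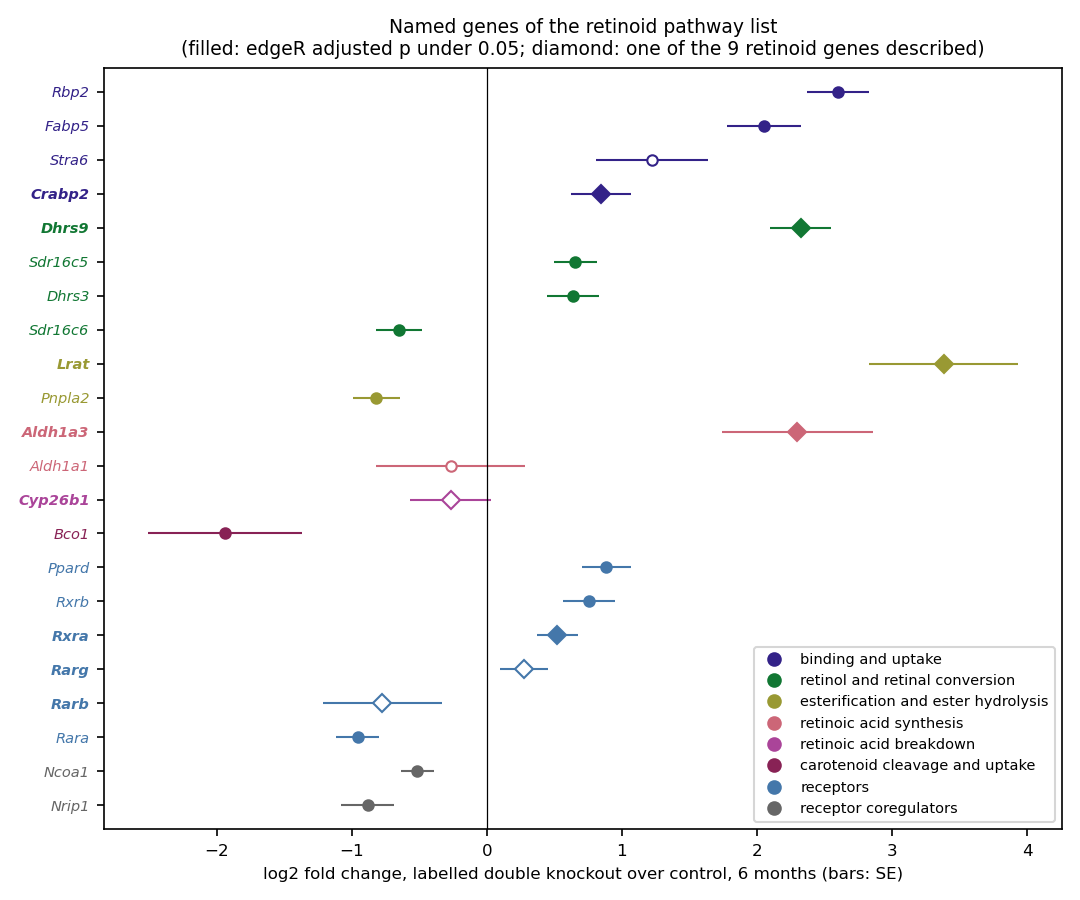
Log2 fold change of the knockout-labelled libraries over the controls at 6 months (horizontal axis, bars are SE) for the tested genes of the retinoid pathway list that the text names, coloured by role. Filled symbols passed an edgeR adjusted p of 0.05 and diamonds are the retinoid genes described first: Lrat lies farthest to the right at 3.38 and Bco1 farthest to the left at -1.94.

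A list of 17 genes known as targets of retinoic acid, 4 of them among the 9 genes, had 13 tested members. Of these, 4 were higher and 1 was lower past the threshold, where 6.26% of all genes tested were higher and 8.59% lower. Crabp2, Lrat and Dhrs3 were among those higher, and the lower one was Nrip1. Rarb, Cyp26b1, Hbegf, Rarres1, Stra6, Tgm2 and Krt4 were among those that did not pass. The median log2 fold change of the 13 was -0.23. Of the targets outside the 9 genes described first, 9 were tested, 2 of them higher and 1 lower.

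Markers of some keratinocyte states moved with the same comparison. Of 6 suprabasal keratinocyte genes Krt1 was higher, Dsc1 was lower and 4 did not pass. Their sums overlapped, at 11690 to 14420 CPM in the controls and 12280 to 16210 CPM in the knockout-labelled libraries. Of 7 wound keratinocyte genes 4 were higher and none lower, and their summed level was 92.2 to 322 CPM in the controls and 3026 to 3918 CPM in the knockout-labelled libraries. All 6 proliferation genes were higher (81.1 to 184 against 324 to 441.5 CPM summed). So were 6 of 8 basal keratinocyte genes (9383 to 11970 against 17680 to 21050 CPM). Krt15, also of the basal list, went the other way without overlap, at 727.6, 1164 and 1187 against 234.4, 672.5 and 330.3 CPM. It did not pass (-1.39, edgeR adjusted p 0.0513), and neither did Trp63 (0.32, edgeR adjusted p 0.172). Of 7 granular and cornified layer genes 2 were lower, Flg2 (log2 fold change -1.47, edgeR adjusted p 0.00982) and Klk7 (-1.07, edgeR adjusted p 0.00495). Their summed level, 2733 to 4554 against 1503 to 2699 CPM, rested mainly on Flg2, with a mean of 2097 against 798 CPM. The list's median log2 fold change was 0.051, and Flg (1.01), Casp14 (0.86), Hrnr (0.29) and Ivl (0.051) had positive values that did not pass. Lor had a negative value that did not pass (-1.28, edgeR adjusted p 0.131). The value of Flg rested mainly on replicate 3 of the knockout-labelled libraries, at 586 CPM against 99.6 and 149 CPM in replicates 1 and 2. Of 8 genes of hair follicle stem cells and the upper follicle, Lgr5 alone was lower (-3.63, edgeR adjusted p 0.00785), with overlapping sums of 740 to 980 against 833 to 1481 CPM. Sums over a joint list for the inner root sheath and hair shaft (73.8 to 105.5 against 16.5 to 30.4 CPM) did not overlap. In the controls this sum rested mainly on Krt75, with a mean of 60.5 against 7.45 CPM in the knockout-labelled libraries. Krt75 did not pass (-3.04, edgeR adjusted p 0.0671), and of the 5 genes tested Msx2 alone was lower (-1.22, edgeR adjusted p 0.0226). The hair keratin genes Krt31 and Krt35 were not tested. Summed dermal papilla genes (6.90 to 13.96 against 1.67 to 4.5 CPM) did not overlap either. None of the 3 genes passed (edgeR adjusted p 0.055 for Corin, 0.103 for Rspo3 and 0.056 for Hhip). Of 8 tested sebaceous gland genes 2 were lower (1151 to 1346 against 573 to 627 CPM summed). The fall in this sum was mainly that of Scd1, with a mean of 780 against 193 CPM. Fasn had a mean of 402 against 372 CPM and did not pass (-0.19, edgeR adjusted p 0.312). Of 8 dermal fibroblast genes 3 were lower and Sparc was higher, with a median log2 fold change of -2.07. Their sums overlapped (91.8 to 207 against 91.6 to 142 CPM). In the knockout-labelled libraries the fibroblast sum rested mainly on Sparc, at 79.4, 89.4 and 118.1 CPM, against 37.95, 48.15 and 36.2 CPM in the controls. Summed adipocyte genes were at 0.290 to 8.13 CPM and endothelial genes at 4.04 to 18.8 CPM in these 6 libraries, while T cell genes (77.3 to 162 against 90.2 to 210 CPM), genes of Langerhans and other myeloid cells (585 to 786 against 473 to 712 CPM) and melanocyte genes (12.6 to 29.5 against 10.3 to 27.8 CPM) overlapped. Of 6 T cell genes Thy1 was higher (1.75, edgeR adjusted p 0.00494), and of 6 myeloid genes H2-Ab1 was lower (-0.66, edgeR adjusted p 0.0342). No marker was at 0 in all 6 libraries. The part of these cell states and types in the retinoid results was not tested.

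The 2 libraries labelled Tfap2b knockout at 3 weeks entered no test, since controls of 3 weeks were not analysed here. Of the 5 genes that rose, Dhrs9 and Aldh1a3 were below and Rxra above every control of 6 months in both. Crabp2 was at 33.8 and 32.9 CPM, Dhrs9 at 6.63 and 6.15 CPM, Aldh1a3 at 0.848 and 0.959 CPM and Rxra at 270.8 and 251.4 CPM, and Lrat held 1 and 3 counts. Rarg, at 249.2 and 253.4 CPM, lay above every control in both, and Rara, at 74.1 and 57.8 CPM, lay within or just below their range. Cyp26b1 (34.8 and 64.6 CPM) and Rarb (5.24 and 2.16 CPM) differed more between the 2 libraries, of which the first carried the fat, fibroblast, endothelial and sebaceous markers. Age and genotype differ together between these libraries and those of 6 months and cannot be told apart.

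**Figure D4:**
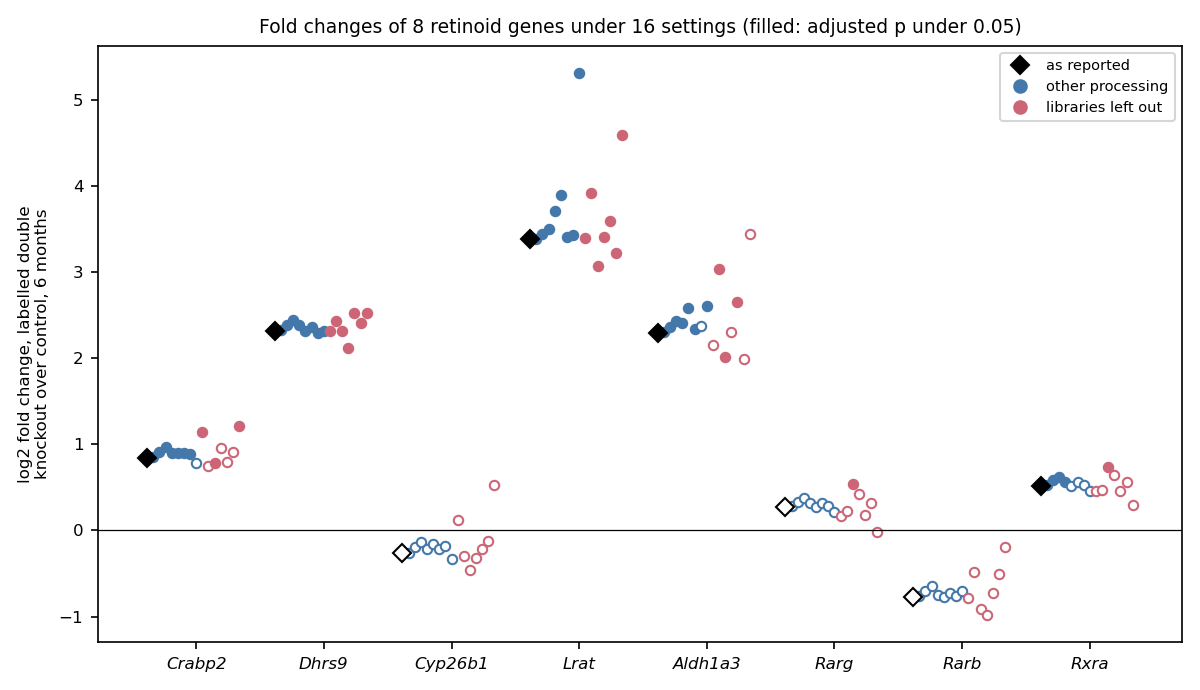
Log2 fold change (vertical axis) of the 8 tested retinoid genes as reported (black diamonds), with other processing (blue) and with libraries left out (red), filled where the adjusted p was under 0.05. Dhrs9 (2.12 to 2.53 over the alternatives) and Lrat (3.07 to 5.32) are filled throughout, and Crabp2, Aldh1a3 and Rxra are filled in part.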

How the data were processed

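Per the labels' protocols, ribosomal RNA was depleted from total RNA and paired-end reads were taken on an Illumina instrument. The submitters' processing notes list Trimmomatic 0.36, STAR 2.5.2b, featureCounts of Subread 1.5.2 and the builds GRCh38 and GRCm38. The authors deposited whole-number counts per gene, not normalized. The strand setting and the treatment of reads with several matches are not given in the sources used here. In 13 of 21 files, all from 3 weeks, every gene was listed at 0. Symbols came from GENCODE M21, which held 49056 of 49315 identifiers.

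Only the 6 libraries of 6 months entered the test: edgeR 4.0.16 (R 4.3.3) with filterByExpr, TMM scaling, a robust quasi-likelihood fit, a prior count of 2 and Benjamini-Hochberg adjustment over all genes tested, called at 0.05. The steps were tested on simulated data. CPM use unscaled library totals. Exact permutation tests used scipy 1.17.1. Alternatives covered 2 other scalings, no filter, DESeq2 1.42.0, limma-voom (limma 3.58.1), all 8 libraries in one fit, the replicate number as a block, subtraction of the background, each library left out, and control replicates 1 and 2 left out together. That last fit assumes the lone control varies like the other group. The genes and lists were chosen with earlier results of these data known. All 9 genes were named, as were other listed retinoid genes past the threshold and the paralogs or partners of the 9, except that a few listed genes are counted but not reported here by name.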

Additional observations from a re-analysis of the deposited data

Results flagged for a closer look

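The 2 libraries labelled Tfap2b knockout, which lie outside the comparison at 6 months, held more than the 3 counts that a count of 0 allows for 7 of the 9 retinoid genes. The lower of their 2 counts was 412 for Crabp2, 77 for Dhrs9, 452 for Cyp26b1 and 11 for Aldh1a3. For the receptors it was 3170 for Rarg, 27 for Rarb and 3146 for Rxra. Lrat and Crabp1 did not exceed 3 counts in both. Controls of 3 weeks were not analysed here.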

How the results depend on the processing

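Dhrs9 and Lrat were called in all 15 alternatives, Crabp2 and Aldh1a3 in 10 each and Rxra in 5, always with the direction reported. The number of retinoid genes called as higher, 5 as reported, was 3 with the replicate block, with the background subtracted and without control replicates 1 and 2, and 2 to 6 when 1 library was left out. Under the block Aldh1a3 and Rxra missed the threshold (2.37 and 0.52, edgeR adjusted p 0.0752 and 0.0694). None was called as lower in any alternative. The share of all tested genes called in either direction moved too, from 14.9% as reported to 9.74% with the replicate block and 14.2% with the background subtracted. When 1 library was left out it ran from 3.15% (without replicate 1 of the knockout-labelled libraries) to 35.9% (without control replicate 3). The member counts are to be read against these shares. Over all genes, 2637 were called as reported, 4809 without a filter, 4192 by DESeq2, 1729 with the replicate block, 1548 with all 8 libraries fitted together, 437 without control replicates 1 and 2, and 668 (without replicate 1 of the knockout-labelled libraries) to 7544 (without control replicate 3) when 1 library was left out. The sign turned for Cyp26b1 without control replicate 1 (0.12, in a range of -0.46 to 0.12 when 1 library was left out) and without control replicates 1 and 2 (0.53), for Rarg without control replicates 1 and 2 (-0.019), and for Aldh1a1 under limma-voom (0.0049), without control replicate 2 (0.48, in a range of -0.49 to 0.48) and without control replicates 1 and 2 (0.63). The causes were not tested. Libraries of equal replicate number did not deviate together (correlations 0.028, -0.161 and -0.057), so the numbers were not taken as pairs, and not every library correlated best with its own number. Depth limits Crabp1, Cyp26a1 and the control values of Lrat.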

Other observations

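The protein-coding genes of at least 5 CPM whose log2(CPM + 0.5) followed each retinoid gene most closely over the 8 libraries were listed as a description, with no test. The libraries share groups and ages, and 10353 genes were searched. For Dhrs9 the closest was Aff2 (Pearson r 0.990), which was itself higher at 6 months in the knockout-labelled libraries (log2 fold change 3.42, edgeR adjusted p 0.00137). Nom1 came next (r 0.987) and did not pass (0.26, edgeR adjusted p 0.284). For Lrat they were Cwh43 (r 0.986) and Klk6 (r 0.983), with log2 fold changes of 1.71 and 2.66 (edgeR adjusted p 0.00462 and 0.000875). For Aldh1a3 the closest was Pop1 (r 0.970), which did not pass (0.59, edgeR adjusted p 0.113), followed by Cwh43 (r 0.963). For Crabp2 they were Nudt3 (r 0.980) and Ly6a (r 0.979), for Rxra Tmem80 (r 0.988) and Pnpla6 (r 0.986), for Rarg Abcc5 (r 0.973), for Cyp26b1 Dusp7 (r 0.955) and for Rarb Bcar3 (r 0.960). Pnpla6 passed the threshold (0.62, edgeR adjusted p 0.0431), and Nudt3, Ly6a, Tmem80, Abcc5, Dusp7 and Bcar3 did not.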
